A study of Mus musculus with 8 samples.

Results

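The chemokines Cxcl9, Cxcl10 and Cxcl11 and their shared receptor Cxcr3 were compared between the colons of mdr1a-/- mice fed curcumin and those of mdr1a-/- mice fed the control diet. The genes were taken by name, as every feature of the deposited table whose platform symbol was one of the 4, and each was represented by 1 probe. All 4 were among the 17220 named genes that could be tested. Cxcl9 and Cxcl11 were 4.07-fold and 4.69-fold lower with curcumin and passed the test across all genes. Cxcl10 had a change of similar size and Cxcr3 a small one, and neither passed.

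RNA was measured in 8 male mice, 1 mouse per 2-colour Agilent array. The curcumin group was 4 mdr1a-/- mice on the AIN-76A diet with 0.2% curcumin, a polyphenol of turmeric, and the control group was 4 mdr1a-/- mice on AIN-76A alone. The labels give the strain as Swiss for the control mice. An age of 7 weeks is labelled for all mice, and the design text follows the animals from week 7 to week 24. Mice that lack mdr1a, the gene of an efflux transporter of the gut epithelium, can develop colitis without further treatment. The design text says that the arrayed curcumin mice had a low HIS, a score of colon injury, and the arrayed control mice a high one. Diet and injury score cannot be told apart here. A rutin diet named in that text was not analysed here.

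Each value is a deposited log2 ratio of 2 dyes, with the mouse RNA in Cy3 and a reference RNA in Cy5. The labels do not state which dye is on top, and signs are given here as mouse colon over reference. The 6 liver genes tested and Xist, a transcript of the inactive X chromosome of females, were below 0 on all 8 arrays of these males. Apoa1, a liver apolipoprotein, lay lowest at -4.52 to -3.86, Ahsg, a liver plasma protein, lay nearest to 0 at -1.21 to -0.56, and Xist lay between -1.57 and -1.05. If the ratio runs the other way, every sign below turns. The reference is described once as a single RNA and once as wild-type colon on the matching diet, and whether it differed between the diets was not tested. Because each value is a ratio to that reference, levels are not compared between genes, and whether markers of colon are present cannot be read from it.

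CXCL9, CXCL10 and CXCL11 are secreted proteins that draw activated T cells and natural killer cells into inflamed tissue. Their receptor, CXCR3, is a G protein-coupled receptor on type 1 helper T cells, cytotoxic T cells and natural killer cells. Interferon gamma from those cells induces all of the ligands through JAK kinases, so that ligand and recruited cell can sustain each other. Type I interferon and NF-kappaB also drive Cxcl10. In inflamed colon, macrophages, epithelium, endothelium and fibroblasts can all be sources of these ligands.

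The ligand genes lie close together on mouse chromosome 5, and Cxcr3 lies on the X chromosome. The RefSeq promoter sequences of Cxcl9, Cxcl10 and Cxcr3 are shown, with the interferon and NF-kappaB motifs before each start marked. The promoter sequences used here held no entry for Cxcl11, so its promoter is not shown. Of the genes shown, Cxcl9 and Cxcl10 had changes of similar size and Cxcr3 a smaller one. Each run is the 250 bases before the gene's start in build GRCm38.p6, read 5′ to 3′ on the minus strand, at chr5:92328080-92328329 for Cxcl9, chr5:92348890-92349139 for Cxcl10 and chrX:101734148-101734397 for Cxcr3. Capitals mark the motif matches found on either strand.
Cxcl9: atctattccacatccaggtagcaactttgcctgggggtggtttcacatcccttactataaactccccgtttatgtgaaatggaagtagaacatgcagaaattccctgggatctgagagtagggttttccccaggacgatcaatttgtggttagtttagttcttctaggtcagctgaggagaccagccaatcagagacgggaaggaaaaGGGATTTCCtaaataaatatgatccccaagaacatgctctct
Cxcl10: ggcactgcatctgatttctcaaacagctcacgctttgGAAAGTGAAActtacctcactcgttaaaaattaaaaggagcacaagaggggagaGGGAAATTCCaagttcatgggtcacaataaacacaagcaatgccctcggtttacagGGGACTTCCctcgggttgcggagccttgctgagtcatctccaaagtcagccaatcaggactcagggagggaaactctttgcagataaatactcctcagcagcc
Cxcr3: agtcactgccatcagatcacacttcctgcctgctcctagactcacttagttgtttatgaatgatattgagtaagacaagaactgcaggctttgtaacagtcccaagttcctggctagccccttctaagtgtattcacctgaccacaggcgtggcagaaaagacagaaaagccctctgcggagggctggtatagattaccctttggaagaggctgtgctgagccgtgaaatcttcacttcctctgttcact

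The motifs marked are the core of the interferon-stimulated element (GAAA, 2 free bases, GAAA) and the kappaB letters as GGGANTTCC and as a longer form (GGGA, 2 free bases, TTCC), none of which overlapped another in these windows. Cxcl9 held GGGATTTCC 42 to 34 bases before its start. Cxcl10 held GAAAGTGAAA 213 to 204 bases before its start, GGGAAATTCC 159 to 150 bases before and GGGACTTCC 103 to 95 bases before. Cxcr3 held none of the 3 motifs. Among 32851 mouse promoter windows of the same length, 2.98% held the interferon element core, 1.43% GGGANTTCC and 1.21% the longer kappaB form. The motifs were chosen after the letters had been seen. A match is a run of letters and no evidence of binding, and the C57BL/6J reference sequence need not be that of these mice.

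Over the whole table, 24030 gene-level measurements were tested with limma and the Benjamini-Hochberg method, and 1137 (4.73%) passed an adjusted p of 0.05, of which 633 (2.63%) were lower and 504 (2.1%) higher with curcumin. After quantile normalization between arrays the split was 489 lower and 619 higher. The median change over all measurements was -0.02 on the log2 scale. The number of arrays limits the precision, and the median standard error of a change was 0.108. Curcumin arrays correlated with each other at 0.872 to 0.918, control arrays at 0.798 to 0.923, and arrays of unlike diet at 0.745 to 0.834. Control array 3 stood apart from its group in Myh11, a smooth muscle myosin, which was at 1.47 there and at 0.230 to 0.396 on the other control arrays. The array weights of limma, which are lower for arrays that vary more, were lowest for control array 2 (0.501) and next lowest for control array 3 (0.612). Results without control array 3 are given where leaving it out changed the call of a main gene or list. Control array 3 was the only single array whose omission raised the count of measurements called lower, to 831. Leaving out control array 4 gave 294 and leaving out curcumin array 4 gave 243. The slide numbers in the labels fall into 2 ranges, 1 with the 4 control arrays and curcumin arrays 1 and 2, the other with curcumin arrays 3 and 4, so values within the range that holds both diets are given too.

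Cxcl9, the ligand most strictly tied to interferon gamma, was lower on every curcumin array than on any control array. Its log2 ratios were -0.64, 1.07, 0.17 and -0.26 on curcumin arrays 1 to 4, against 2.45, 1.82, 1.29 and 2.88 on control arrays 1 to 4. The groups did not overlap, with 0.22 between the highest curcumin array and the lowest control array. The mean was 0.0854 ± 0.737 with curcumin and 2.11 ± 0.699 in the control group (SD, n = 4 each). Cxcl9 fell by 2.02 on the log2 scale (SE 0.42, 95% interval -2.96 to -1.09), a 4.07-fold decrease that passed limma's test (adjusted p = 0.0282). It ranked 21st by size among the decreases of all named genes.

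Cxcl11, the ligand that binds CXCR3 most tightly in human cells, had the largest change of the 4 genes. The curcumin arrays 1 to 4 were at -0.77, 1.05, 0.95 and -0.084, against 2.08, 2.72, 1.80 and 3.46 on control arrays 1 to 4. Again the groups did not overlap, and the gap was 0.75. The mean was 0.288 ± 0.871 with curcumin and 2.52 ± 0.738 in the control group (SD, n = 4 each). Cxcl11 fell by 2.23 on the log2 scale (SE 0.47, 95% interval -3.28 to -1.18), a 4.69-fold decrease (limma adjusted p = 0.0297) that ranked 11th among named genes. RefSeq annotates this gene in the C57BL/6J reference as a transcribed pseudogene, so the RNA measured here is given without a statement about protein.

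Cxcl10, a ligand that also answers to type I interferon, had no value on control array 1, so its control group had 3 arrays. It was at -1.25, 0.54, 0.33 and -0.84 on curcumin arrays 1 to 4, against 1.67, 0.059 and 3.31 on control arrays 2 to 4. Control array 3 lay below curcumin arrays 2 and 3, and the groups overlapped. The mean was -0.306 ± 0.874 with curcumin (SD, n = 4) and 1.68 ± 1.63 in the control group (SD, n = 3). The change was -1.99 on the log2 scale (SE 0.74, 95% interval -3.69 to -0.28), nearly that of Cxcl9, but it did not pass (limma adjusted p = 0.193). Without control array 3, which left only control arrays 2 and 4, it was -2.80 and passed (limma adjusted p = 0.0458). Without control array 4, which left only control arrays 2 and 3, it was -1.17 and did not (limma adjusted p = 0.436). Both fits fall short of the 3 values per group that the main fit required. The 3 control arrays spanned 3.25 on the log2 scale.

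Cxcr3, the receptor, had the smallest change of the 4 genes. Its log2 ratios were 0.040, -0.033, 0.089 and -0.0032 on curcumin arrays 1 to 4, against 0.52, 0.72, -0.15 and 0.58 on control arrays 1 to 4. The curcumin arrays spanned 0.122 and the control arrays 0.868, and control array 3 alone lay below the curcumin arrays. The mean was 0.0232 ± 0.0531 with curcumin and 0.419 ± 0.387 in the control group (SD, n = 4 each). The change was -0.40 (SE 0.17, 95% interval -0.78 to -0.01), a fold of 1.32 that did not pass limma's test (adjusted p = 0.251). Without control array 3 it was -0.58 and passed (limma adjusted p = 0.00737). Leaving out any other single array, it did not pass (limma adjusted p = 0.338 to 0.442).

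**Figure D1:**
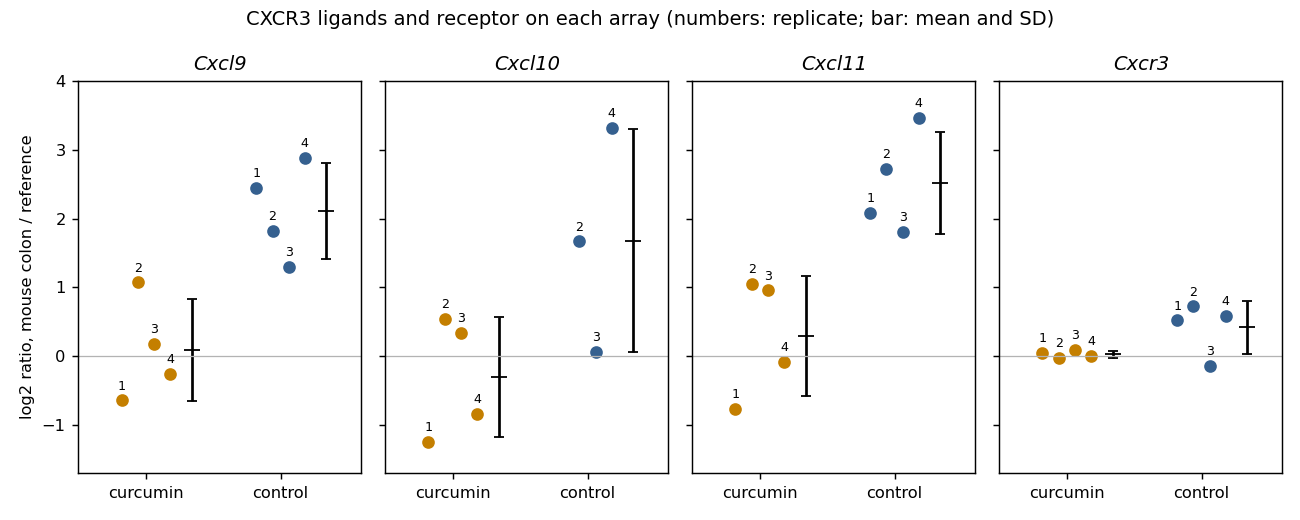
Log2 ratio of mouse colon to reference for each of the 4 genes on each array, with curcumin at the left and control at the right of each panel, points numbered by replicate and bars for the mean and SD. Cxcl9 and Cxcl11 do not overlap between the groups, and control array 3 is the lowest control point in all 4 panels.

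Thus 2 of the 4 genes were called lower, and the same 2 had all curcumin arrays below all control arrays. Over all measurements 2.63% were called lower and 7.21% had all curcumin arrays below all control arrays. In the bulk colon samples used here, fewer cells of a type and less RNA per cell cannot be told apart.

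**Figure D2:**
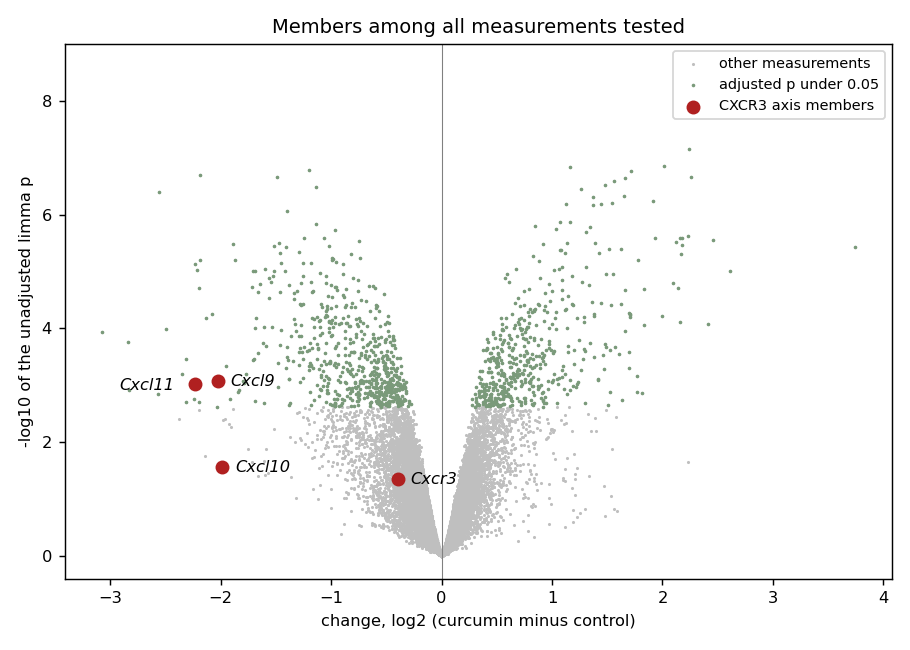
Change with curcumin (x axis, log2) against -log10 of the unadjusted limma p (y axis) for the 24030 measurements tested, with green points for those at an adjusted p under 0.05 and red points for the 4 genes. Cxcl11 at -2.23 and Cxcl9 at -2.02 lie among the called decreases, while Cxcl10 at -1.99 has a similar change with a larger error.

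The calls of Cxcl9 and Cxcl11 were lost in several of the other fits, while their direction was kept. With the slide number range as a block, Cxcl9 changed by -1.90 (limma adjusted p = 0.156) and Cxcl11 by -2.37 (limma adjusted p = 0.118). Only 1 range holds both diets, so these changes come from curcumin arrays 1 and 2 against the 4 control arrays. A fit of that range alone therefore gives the same changes by design, with limma adjusted p of 0.214 and 0.152. In that block fit 0.666% of all measurements were called lower. Cxcl10 and Cxcr3 had changes of -2.04 and -0.42 in the same fit and did not pass (limma adjusted p = 0.426 and 0.483). Leaving out 1 array at a time, the change of Cxcl9 stayed between -2.35 and -1.77 and that of Cxcl11 between -2.48 and -1.88. The call of Cxcl9 was lost without curcumin array 1, 3 or 4 or control array 1 or 4, with adjusted p up to 0.0873. The call of Cxcl11 was lost without curcumin array 1 or 4 or control array 1, 2 or 4, with adjusted p up to 0.0921.

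**Figure D3:**
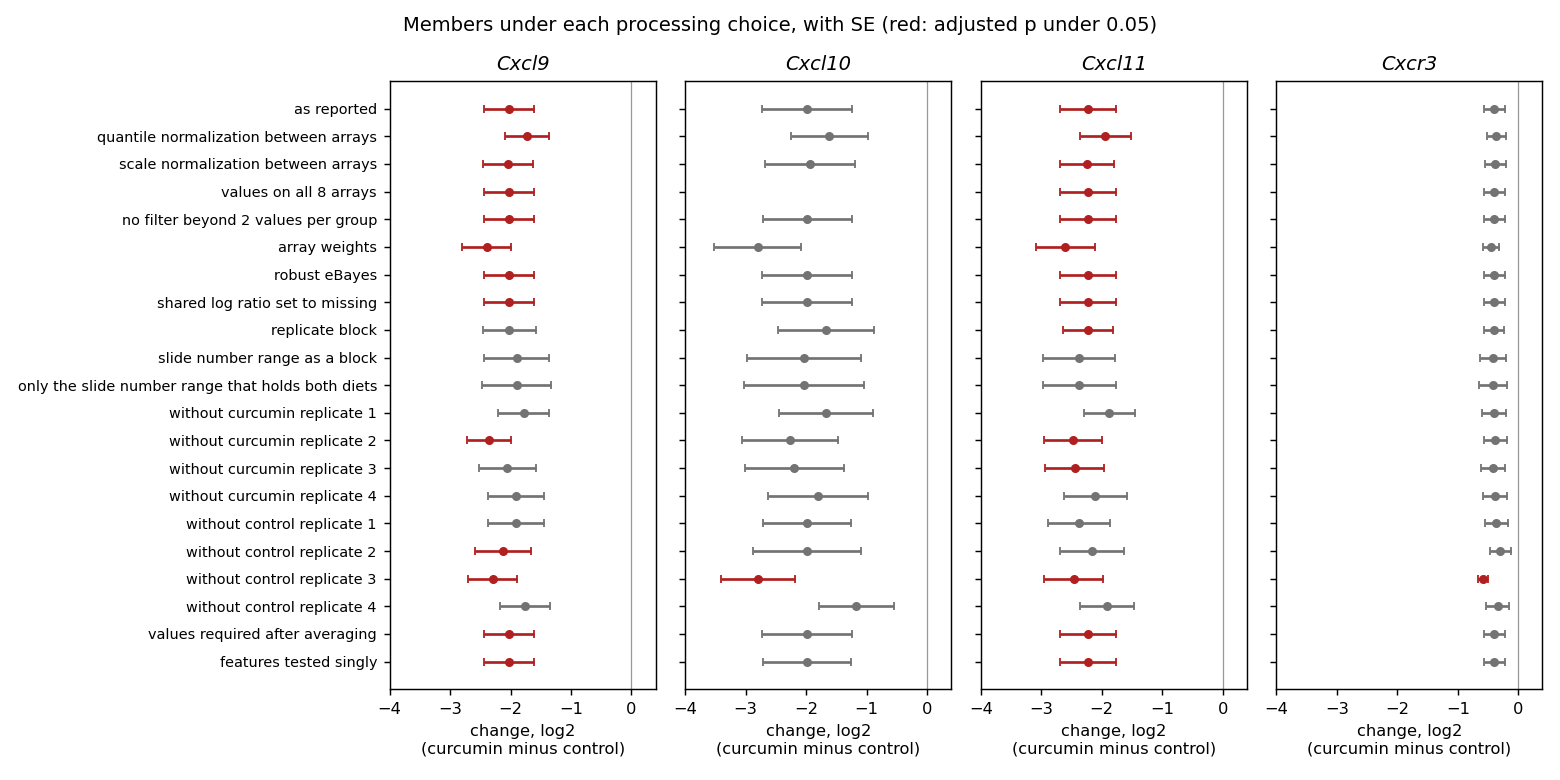
Change with curcumin (x axis, log2, with SE) of the 4 genes under each processing choice and with each array left out, in red where the adjusted p is under 0.05. The ligands stay between -2.80 and -1.17 and Cxcr3 between -0.58 and -0.30, so the direction holds throughout while the calls come and go.

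The ligands had the same order of curcumin arrays, but not of control arrays. With curcumin all 3 ligands ran from array 2, the highest, through arrays 3 and 4 to array 1, the lowest. Among the control arrays, array 4 was the highest for every ligand and array 3 the lowest for all 4 genes. The other control arrays differed in order between Cxcl9 and Cxcl11. Over all measurements, curcumin array 2 was the highest curcumin array for 29.6%, curcumin array 1 was the lowest curcumin array for 24.5% and control array 3 the lowest control array for 25.9%, while control array 4 was the highest for 16.2%.

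Whether 2 members changed by unequal amounts was asked from the difference between their log2 ratios on the same array, for all 6 pairs, with a two-sided exact permutation test over arrays. Cxcl11 minus Cxcr3 was 0.265 ± 0.876 with curcumin and 2.10 ± 0.555 in the control group, a difference of -1.83 (SD, n = 4 each; exact permutation p = 0.0286, the smallest the design allows, and 0.171 after adjustment over the 6 pairs). Cxcl9 minus Cxcr3 differed by -1.63 (exact permutation p = 0.0571, adjusted 0.171) and Cxcl10 minus Cxcr3 by -1.62 (exact permutation p = 0.143, adjusted 0.286). Among the ligands the differences of 0.07 between Cxcl9 and Cxcl10, 0.20 between Cxcl9 and Cxcl11 and 0.39 between Cxcl10 and Cxcl11 did not pass (exact permutation p = 0.914, 0.543 and 0.4). No pair passed after adjustment, which does not show that the members changed alike. At the smallest exact permutation p of 0.0286, a pair could pass after adjustment only if several pairs reached it together.

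The genes whose array pattern was most like each member were found by the root mean square difference of log2 ratios after each gene's own mean was removed. For Cxcl9, over 8 arrays and 16146 named genes, the nearest were Iigp1, an interferon-inducible GTPase, at 0.285, Ccdc88b, a coiled-coil protein of immune cells, at 0.289, and Gbp3, a guanylate-binding protein, at 0.296, where the median gene was at 1.19. Iigp1 at 0.371 and Ccdc88b at 0.379 were also nearest to Cxcl11, followed by Cxcl9 at 0.427. For Cxcl10, over 7 arrays, Cxcl11 at 0.476 was the nearest, then Acod1, the enzyme that makes itaconate in macrophages, at 0.495, and Cxcl9 at 0.513.

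Ccdc88b fell by 2.196 on the log2 scale (SE 0.27, limma adjusted p = 0.00391). Acod1 had a change of -1.75 that did not pass (SE 0.57, limma adjusted p = 0.128), while without control array 3 it was -2.21 and passed (limma adjusted p = 0.0386). The arrays of Acod1 were at -0.0078, 0.70, 0.28 and -0.095 with curcumin and at 2.29, 1.28, 0.59 and 3.71 in the control group, again with control array 3 lowest and array 4 highest. The pattern nearest to Cxcr3 was that of Dnase1l3, a secreted DNase, at 0.0918, then Tmem52 at 0.0968 and Uba7, the enzyme that activates ISG15, at 0.0977, against 0.341 for the median gene. All of these passed and were lower without control array 3, Dnase1l3 at -0.51, Tmem52 at -0.54 and Uba7 at -0.67 (limma adjusted p = 0.0148, 0.0117 and 0.00535). In that fit 3.46% of all measurements were called lower. These genes, like Acod1, were picked for likeness to a member that passed without control array 3, so their calls there are no separate result. The likenesses are descriptions over arrays that share the diet, and the size of the change weighs on them.

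The genes next to the ligands on the chromosome had smaller changes. The same held for nearly all of the 17220 named genes, where the ligands ranked 11th, 21st and 22nd by decrease. The order in RefSeq is Ppef2, Naaa, Sdad1, Cxcl9, Art3, Cxcl10, Cxcl11, Nup54, Scarb2 and Fam47e. Art3, a mono-ADP-ribosyltransferase gene between Cxcl9 and Cxcl10, had a change of 0.02 (SE 0.24, limma adjusted p = 0.983). Its sign turned when single arrays were left out, and it ran from -0.12 to 0.23 over those fits. Of the 7 neighbours, only Sdad1, a gene of ribosome biogenesis, passed, beside 4.73% of all measurements. Its change was -0.42 (SE 0.09, limma adjusted p = 0.0327). That call was kept only without curcumin array 1 when single arrays were left out (adjusted p up to 0.0892), and it was lost in the slide range block (adjusted p = 0.193). The 2 probes of Sdad1 differed, at -0.24 and -0.61, and the other neighbours lay between -0.46 and 0.02. The neighbours were chosen after the values had been seen.

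Upstream of the ligands stands interferon gamma itself. Ifng had log2 ratios of 0.13, 0.74, 0.21 and 0.22 on curcumin arrays 1 to 4, against 1.83, 1.18, 0.67 and 2.74 on control arrays 1 to 4. Control array 3 lay below curcumin array 2, so the groups overlapped. The change was -1.28 (SE 0.38) and did not pass (limma adjusted p = 0.0999), and its 2 probes gave -1.48 and -1.28. Not every array held a value for both probes, so the change of the gene is not midway between theirs. Without control array 3 it was -1.59 and passed (limma adjusted p = 0.029), and with the slide range as a block it was -1.17 (limma adjusted p = 0.356).

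Of 9 genes of interferon gamma signalling, 8 were tested and none passed with limma. An unadjusted p under 0.05 was reached by 4 of the 8, all lower, and by 4423 of all 24030 measurements in either direction. The median change was -0.21 against -0.02 over all measurements. Socs1, a feedback inhibitor of JAK kinases, had a change of -0.95 (SE 0.39, adjusted p = 0.234). Irf8, a transcription factor of myeloid cells that interferon gamma induces, had -0.53 (SE 0.18, adjusted p = 0.148). The kinase gene Jak1 had -0.19 (SE 0.08, adjusted p = 0.239), and its 3 probes ran from -0.31 to -0.02. Without control array 3, 3 of the 8 were called lower (Ifng, Socs1 and Irf8), where 3.46% of all measurements were called lower.

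The cytokines, receptors and transcription factors that make lymphocytes release interferon gamma changed in both directions. Among 12 listed genes 10 were tested, of which 3 fell and 1 rose, with a median of -0.13. Over all measurements 2.63% were called lower and 2.1% higher. Il12rb1, a receptor chain shared within the interleukin 12 family, fell by 1.04 (SE 0.24, limma adjusted p = 0.0457), and Il18r1, a receptor chain for interleukin 18, fell by 1.02 (SE 0.16, limma adjusted p = 0.00944). Ebi3, a cytokine subunit of the same family, fell by 0.60 (SE 0.12, limma adjusted p = 0.0295). Leaving out single arrays, Il12rb1 kept its call only without curcumin array 2 or control array 3 and lay between -1.25 and -0.90 (adjusted p up to 0.128). Ebi3 kept its call only without curcumin array 3 or control array 3 and lay between -0.68 and -0.50 (adjusted p up to 0.0896).

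Il18, whose product is an epithelial and myeloid cytokine, rose while Il18r1, a chain of its receptor, fell. The gene of the other receptor chain, Il18rap, had a change of -0.0038 that did not pass (SE 0.11, limma adjusted p = 0.992). Il18 was at 0.95, 1.26, 1.07 and 1.53 on curcumin arrays 1 to 4, against -0.10, 0.0080, -0.39 and 0.081 on control arrays 1 to 4, with no overlap. The change was 1.30 (SE 0.15, limma adjusted p = 0.00264). Il18r1 ran the other way, at 0.25, 0.55, 0.25 and 0.37 with curcumin and at 1.25, 1.81, 1.41 and 1.01 in the control group. In the slide range block Il18r1 no longer passed (-0.97, limma adjusted p = 0.0724), and Il12rb1 and Ebi3 did not pass either (-0.94 and -0.66, limma adjusted p = 0.227 and 0.0953). Il18 did pass there, at 1.204 (limma adjusted p = 0.028).

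The other inputs to the ligand genes gave 1 call in each list, where 2.63% of all measurements were called lower. Of 11 genes of type I and III interferon signalling, 9 were tested and 1 fell, with a median of -0.24. That gene was Ifnar2, a chain of the type I interferon receptor, at -0.60, -0.28, -0.45 and -0.57 with curcumin against 0.54, 0.50, 0.37 and 0.55 in the control group. It fell by 0.97 (SE 0.09, limma adjusted p = 0.00153), and its 2 probes gave -1.10 and -0.83. Of 8 genes of TNF and NF-kappaB signalling 7 were tested and 1 fell, with a median of -0.44. Nfkbia, the NF-kappaB inhibitor that is also a target of NF-kappaB, fell by 1.07 (SE 0.21, limma adjusted p = 0.0223), which did not pass in the slide range block (-1.19, limma adjusted p = 0.0812) or without curcumin array 1 or 4 or control array 4 (adjusted p up to 0.0747). Without control array 3 this list had 3 called genes and the interferon list 2, where 3.46% of all measurements were called lower. Tnf had a change of -0.77 that did not pass (SE 0.24, limma adjusted p = 0.112).

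Close partners of the axis were listed too: the CXCR3 ligand Pf4, the CXCL11 receptor Ackr3, the chemokine-trimming protease Dpp4, and the signalling genes Gnai2 and Arrb2. All 5 were tested and 1 fell, with a median of -0.34, beside 2.63% called lower over all measurements. Arrb2, an arrestin that takes part in receptor internalisation, was at -0.17, 0.11, 0.013 and -0.075 with curcumin against 0.63, 1.01, 1.14 and 1.10 in the control group. It fell by 0.996 (SE 0.12, limma adjusted p = 0.00366).

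**Figure D4:**
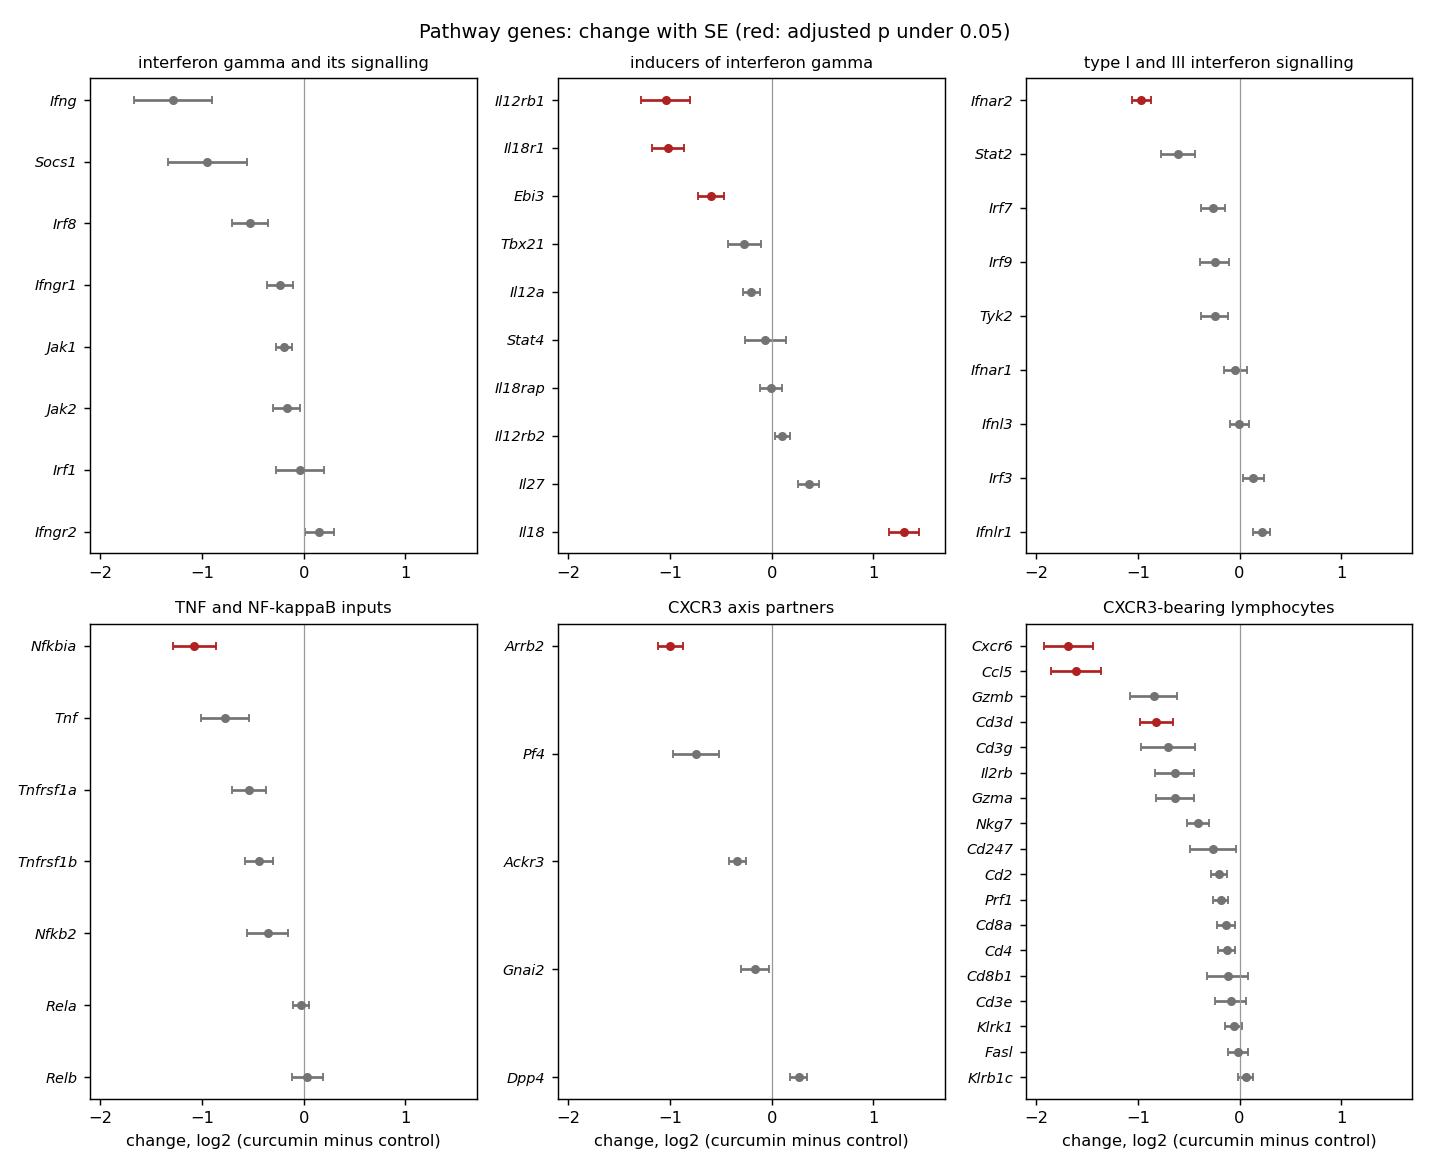
Change with curcumin (x axis, log2, with SE) of each tested gene in 6 lists, in red where the adjusted p is under 0.05. Il18 at 1.30 is the one called increase, and Cxcr6 at -1.68 and Ccl5 at -1.61 are the largest called decreases.

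Other targets of interferon gamma, which do not belong to the chemokine family, had the lowest median change of the pathway and marker lists. All 17 were tested, 6 fell and none rose, 16 had a change below 0, and the median was -0.96 against -0.02 over all measurements, where 2.63% were called lower. Ido1, which degrades tryptophan, fell by 2.24 (SE 0.51, limma adjusted p = 0.0419). It was at -1.29, 1.06, 1.38 and -0.0036 with curcumin and at 2.64, 2.19, 2.98 and 2.30 in the control group, with no overlap. The call of Ido1 was lost in the slide range block (-2.64, adjusted p = 0.0953) and without curcumin array 4 or any 1 control array (adjusted p up to 0.119).

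Gbp3 and Gbp4, guanylate-binding proteins of cell-autonomous defence, fell by 2.08 (SE 0.29, limma adjusted p = 0.00681) and 1.84 (SE 0.40, limma adjusted p = 0.0342). Gbp3 was at -0.79, 0.66, 0.031 and 0.086 on curcumin arrays 1 to 4, against 2.35, 1.72, 1.76 and 2.47 on control arrays 1 to 4. Iigp1 fell by 1.91 (SE 0.44, limma adjusted p = 0.0425), and its arrays were at -2.93, -0.99, -1.16 and -2.13 with curcumin against 0.46, 0.065, -0.69 and 0.61 in the control group. Cd274, the checkpoint ligand PD-L1, and Tap1, a peptide transporter of antigen presentation, were the remaining called genes, at -1.34 (SE 0.24, limma adjusted p = 0.0178) and -0.93 (SE 0.22, limma adjusted p = 0.0493). Gbp3 kept its call whichever array was left out. Gbp4 kept it only without control array 2 or 3 (adjusted p up to 0.0985), and Iigp1 only without curcumin array 2 or control array 3 (adjusted p up to 0.122). Nos2, the inducible nitric oxide synthase, had a change of 0.04 (SE 0.13, limma adjusted p = 0.918).

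Single arrays were ranked in this list too. Curcumin array 2, the highest for the ligands, was the highest curcumin array for 8 of the 17 genes, against 29.6% of all measurements. Curcumin array 1 was the lowest for 16 of 17, against 24.5% of all measurements. Control array 4 was the highest control array for 13 of 17, against 16.2% of all measurements. Control array 3 was the lowest for 13 of 17, against 25.9%. The count of called genes was 11 without control array 3 (3.46% of all measurements called lower) and 3 with the slide range as a block (0.666%). Without curcumin array 4 it was 1, where 243 of 24030 measurements were called lower. Leaving out any of the other arrays gave 2 to 4, where 265 to 627 measurements were called lower.

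**Figure D5:**
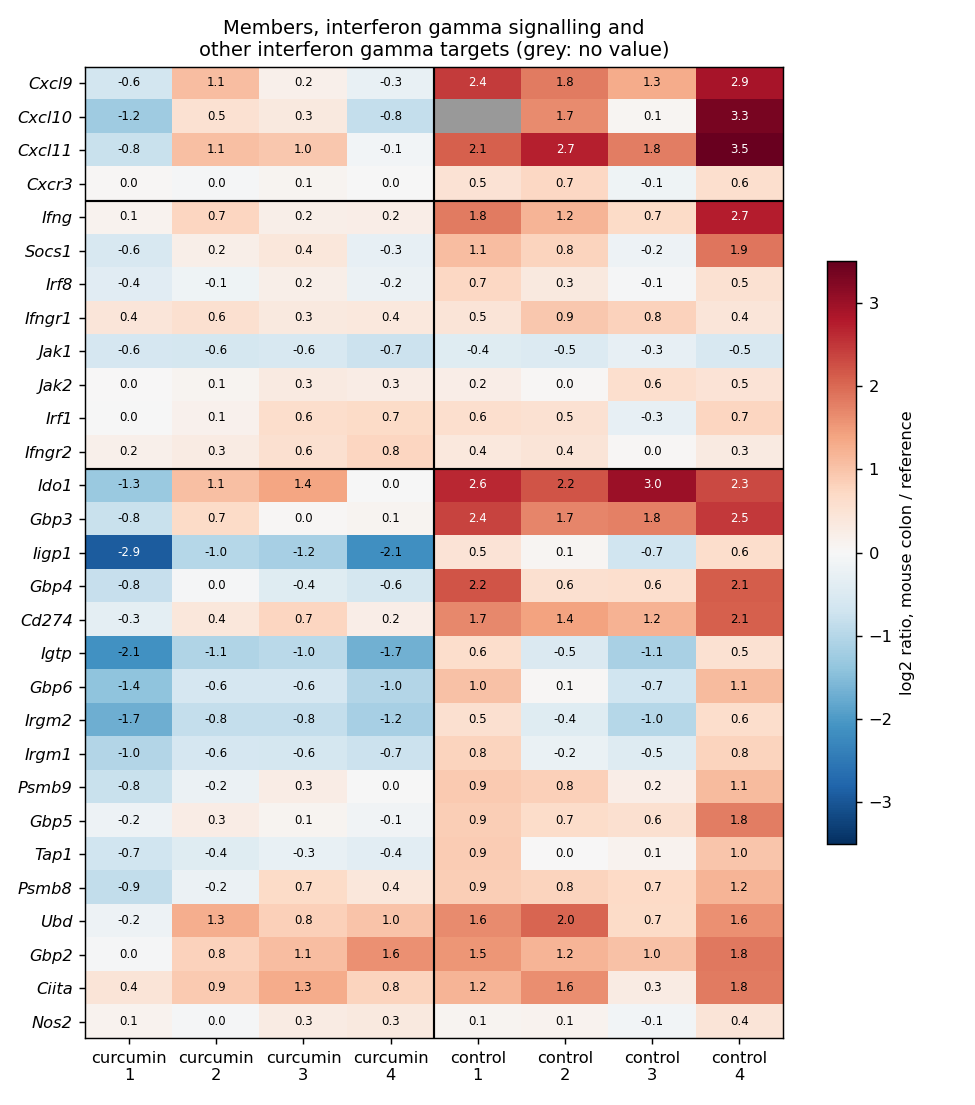
Log2 ratio of mouse colon to reference on each array (columns, curcumin at the left, control at the right) for the 4 genes, interferon gamma signalling and 17 other interferon gamma targets (rows), with grey for no value. Curcumin array 1 has the lowest curcumin value for 16 of the 17 other targets, and control array 4 has the highest control value for 13 of them.

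Genes listed for the lymphocytes that carry CXCR3 were followed next, and in bulk colon their RNA cannot be assigned to those cells. Of 20 listed genes 18 were tested, 3 fell and none rose, 17 had a change below 0, and the median was -0.23, beside 2.63% called lower over all measurements. Cxcr6, a homing receptor of activated T cells, was at 0.92, 1.67, 0.99 and 1.40 on curcumin arrays 1 to 4, against 3.17, 3.30, 2.26 and 2.98 on control arrays 1 to 4. It fell by 1.68 with no overlap (SE 0.24, limma adjusted p = 0.00719). Ccl5, a chemokine that cytotoxic T cells can make, fell by 1.61 (SE 0.24, limma adjusted p = 0.00847), with its 2 probes at -1.42 and -1.79. Both calls held whichever array was left out.

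Cd3d, a chain of the T cell receptor complex, fell by 0.82 (SE 0.16, limma adjusted p = 0.024), a call lost without curcumin array 1, 3 or 4 or control array 1 or 4 (adjusted p up to 0.0752). The chains Cd3g, Cd247 and Cd3e of that complex had changes of -0.70, -0.26 and -0.085 and did not pass (limma adjusted p = 0.193, 0.617 and 0.828). Cd8a had a change of -0.13 and Cd4 one of -0.13, and neither passed (limma adjusted p = 0.491 and 0.477). The count of called lymphocyte genes was 8 without control array 3 (3.46% of all measurements called lower) and 1 in the slide range block (0.666%), where Ccl5 was the called gene (-1.69, adjusted p = 0.0478) and Cxcr6 missed the threshold (-1.63, adjusted p = 0.0558). Control array 3 was the lowest control array for 15 of the 18 genes.

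Markers of the cells the tissue could hold differed beside the ligands, and their part in the ligand changes was not tested. Their counts stand beside 2.63% of all measurements called lower and 2.1% called higher. Of 7 T cell markers 3 fell (Cd3d, Cd6 and Lat), with a median over markers of 0.0751 to 0.244 on the curcumin arrays and 0.227 to 1.002 on the control arrays. Cd6 rested on 2 probes that differed, at -0.05 and -1.16, and it kept its call only without control array 2 or 3 (adjusted p up to 0.0831). Lat kept its call only without curcumin array 2 or control array 1 or 3 (adjusted p up to 0.109). Of 8 macrophage and dendritic cell markers 3 fell (C1qa, C1qc and Tyrobp), with array medians of 0.120 to 0.481 with curcumin and 0.859 to 1.003 in the control group. The median change was -0.61 for the T cell list and -0.69 for the macrophage list. Each of these lists had 4 called genes without control array 3 (3.46% of all measurements called lower). In the slide range block (0.666%) the T cell list had 0 and the macrophage list 2.

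Of 5 neutrophil markers 2 fell: S100a8, which fell by 3.07 (SE 0.48, limma adjusted p = 0.00944) and S100a9, which fell by 2.56 (SE 0.57, limma adjusted p = 0.037). The array medians over the 5 neutrophil markers were -0.226 to 0.404 with curcumin and 0.398 to 1.45 in the control group. S100a9 lost its call without curcumin array 4 or any 1 control array (adjusted p up to 0.107). Without control array 3, 1 of the 5 neutrophil markers was called lower, where 3.46% of all measurements were. An unadjusted p under 0.05, given for the next lists, was reached by 4423 of all 24030 measurements. None of 4 natural killer cell markers passed with limma, and 0 had an unadjusted p under 0.05. Their array medians were -0.0517 to 0.0710 with curcumin and -0.0037 to 0.108 in the control group. None of 6 B and plasma cell markers passed, 2 had an unadjusted p under 0.05, and the array medians were 0.496 to 1.21 with curcumin and 0.550 to 1.68 in the control group. Without control array 3, 1 of these 6 was called lower, where 3.46% of all measurements were. The median change of this list was then -0.57, against -0.26 with all arrays. Of 6 fibroblast markers 3 fell (Col1a1, Col1a2 and Col3a1), with a median of -0.74. In the slide range block Col1a1 alone of them passed (adjusted p = 0.0457, against 0.0509 for Col1a2 and 0.056 for Col3a1), and probes differed, from -1.67 to -0.03 for Col1a1 and from -1.14 to -0.20 for Col3a1. Of 6 endothelial markers 1 fell (Esam, a call lost whichever array was left out), with a median of -0.18. With control array 3 left out, 0 of these 6 were called lower.

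Of the epithelial and fat markers, 3 were called and all of them rose. Slc26a3, the chloride exchanger of surface colonocytes, rose by 2.17 (SE 0.21, limma adjusted p = 0.00175) as the 1 called gene of 8 epithelial markers, although its 3 probes ran from 0.20 to 3.26. Of the 8 epithelial genes 6, but not Slc26a3, held on at least 1 array a log ratio that 191 to 397 features shared on that array, so no level of that list is given. With such values set to missing 4 of its genes were tested, Slc26a3 was still the 1 called, and the median change was 0.35. Adipoq and Fabp4 rose among 3 adipocyte markers, by 1.84 (SE 0.28, limma adjusted p = 0.00814) and 1.13 (SE 0.17, limma adjusted p = 0.00848). Fabp4 also held shared log ratios, and with these set to missing it had a change of 0.74 that did not pass (limma adjusted p = 0.0747). None of 4 smooth muscle markers passed with limma, with a median of 0.17. An unadjusted p under 0.05 was reached by 0 of them, against 4423 of all 24030 measurements. Myh11 was called higher without control array 3 (0.81, limma adjusted p = 0.023).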

How the data were processed

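The authors deposited log2 ratios of the 2 dyes for each array. The submitters' processing notes name limma, without a version; the direction of the ratio, the background correction and the scanner software are not given in the sources used here. Of 44290 features, 32042 had 1 gene symbol in the platform annotation, 47 several and 12201 none, and 31906 matched the GRCm38.p6 gene table with 0 symbols changed. Between 11.4% and 23.8% of values were missing per array, and 191 to 397 features per array shared 1 log ratio, none of them a probe of the 4 genes. No column lacked a sample.

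Probes with at least 3 values per group were kept and averaged per gene, which left 24030 measurements (17220 named). This order was chosen after the data were seen; averaging first gives 24071 and is an alternative. No scaling was added. The groups came from the sample titles, and the design text calls the 4 arrays per diet biological replicates. Curcumin was set against control in R 4.3.3 with the package limma 3.58.1 (lmFit, then eBayes, no covariate, two-sided, Benjamini-Hochberg over all measurements, threshold 0.05), which was also tested on simulated data. Labels were read with jsonlite 2.0.0, and tables and figures were made with Python 3.11.15, pandas 2.3.3 and matplotlib 3.10.9. SD is over arrays, and SE is the moderated error of the change. Of all measurements, 4423 had an unadjusted p under 0.05. Marker and pathway lists were described by counts and medians only.

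The 4 genes and the lists were chosen with earlier results of these data known. Named genes were, for each list, up to 4 called genes by size of change (in lists without a call, the 4 of smallest p), and for each member the 3 genes with the most similar arrays. Cd274, Tap1, Nos2, Tnf, Cd3e, Cd3g, Cd247, Cd4, Cd8a, Pf4, Ackr3, Dpp4, Gnai2 and the chromosomal neighbours were named after their values were seen. Replicate numbers are shared between the diets, but the deviations of same-numbered arrays did not correlate at over 0.1 for every number (0.167, 0.198, -0.00963 and -0.0213 for numbers 1 to 4), so they were not treated as pairs. A further promoter motif that was searched is not reported here. Alternatives changed the normalization, the filter, the averaging, the weights, the blocks and the arrays used.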

Additional observations from a re-analysis of the deposited data

Results flagged for a closer look

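Among 97 groups of 4 arrays for the 49 genes looked at, 6 held an array far from the other 3 of its group, and chance gives about 1 in 20. Ifng was at 0.743 on curcumin array 2 and at 0.125 to 0.221 on the other curcumin arrays. Cd6 was at -0.157 on curcumin array 1 and at 0.164 to 0.215 on the others, and Slc26a3 was at 2.44 on curcumin array 2 and at 1.59 to 1.67 on the others. The remaining 3 were all on control array 3. Dnase1l3 was at -0.415 there and at 0.211 to 0.227 on the other control arrays, Uba7 was at -0.298 and at 0.450 to 0.538, and Myh11 was at 1.47 and at 0.230 to 0.396.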

How the results depend on the processing

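All 4 genes stayed below 0 under each of the alternatives run. Besides the leave-one-out fits, Cxcl9 kept its call under 9 of 12 and Cxcl11 under 10 of 12. The exceptions were the slide range block, the range that holds both diets and, for Cxcl9 alone, the replicate block. The slide range block and the range that holds both diets give the same changes by design (-1.90 and -2.37). Cxcl10 ranged from -2.80 to -1.62 over 11 alternatives, since the one that needs all 8 arrays gives it no value. Leaving out 1 array gave -2.35 to -1.77 for Cxcl9, -2.48 to -1.88 for Cxcl11, -2.80 to -1.17 for Cxcl10 and -0.58 to -0.30 for Cxcr3. Each replicate left out gave 487 to 1364 called measurements, 243 to 831 lower and 233 to 533 higher. Array weights gave 1931 (1141 lower, 790 higher), the slide range block 330 (160 lower, 170 higher) and the range with both diets 168 (66 lower, 102 higher); the last uses fewer arrays. Cxcl9 minus Cxcl10 turned to -0.0093 without control array 2 and -0.30 without control array 4, and leaving out 1 array it ran from -0.30 to 0.53. Art3 turned to -0.02 without curcumin array 1, -0.12 without curcumin array 2, -0.03 without control array 1, -0.02 without control array 2 and -0.11 without control array 4, over a range of -0.12 to 0.23. Other interferon gamma targets called lower numbered 1 to 12, beside 66 to 1141 of all measurements. The causes were not tested.

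With the replicate number as a block, 743 measurements were called (382 lower), and Cxcl9 changed by -2.02 with a limma adjusted p of 0.0673, while Cxcl11 passed at 0.0484. Curcumin arrays 1 and 2 correlated best with the control array of their own number, and curcumin arrays 3 and 4 did not, so the numbers were not taken to pair the mice.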
